A study of Mus musculus with 6 samples.

Results

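Mesothelial cells form the single-cell-thick lining of the peritoneal cavity and cover the surface of visceral fat pads, which subcutaneous fat lacks. A set of 10 genes that mark this lining was followed here through the transcriptome of visceral fat: Msln, Upk3b, Upk1b, Lrrn4, Krt19, Krt8, Krt18, Wt1, Bnc1 and Muc16. They were taken from a list of gene symbols, and 10 of 10 were found among the 16619 genes of the deposited table. RNA-seq of poly(A)-enriched RNA was made from the fat depot that the labels call epididymal white adipose tissue (eWAT), from 6-month-old female mice by the study's methods. The mice with adipocyte loss of Prmt5, the arginine methyltransferase that symmetrically dimethylates histones and splicing factors, are called Prmt5AKO. They carried Adipoq-Cre together with floxed Prmt5 on both chromosomes (Prmt5 flox/flox), and 3 libraries were made from them. The 3 WT libraries came from Prmt5 flox/flox mice without Cre, so both genotypes carry the floxed alleles and only the Prmt5AKO mice carry the transgene. The Adipoq promoter drives Cre in adipocytes, so Prmt5 in mesothelial cells is not the aim of the deletion. Nothing in the labels ties a library to 1 animal, and p-values therefore measure only how far these libraries spread.

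Mesothelium arises from the mesoderm yet keeps an epithelial form, with simple-epithelium keratins, microvilli and a slippery surface coat of glycoproteins. It also expresses transcription factors of the mesoderm, above all Wt1, and in mouse visceral fat Wt1 is also found in stromal progenitors. Uroplakins are best known from the bladder lining, but Upk3b and Upk1b are also made by mesothelium.

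Values are CPM on the effective library size, as deposited, which scales the reads of a gene to library depth, and whole reads could be recovered from all of them. The libraries held 18731215 to 24636063 reads on genes in Prmt5AKO eWAT and 21999576 to 27445096 in WT eWAT. Along the leading principal component (64.5% of variance) the libraries did not separate by genotype. Prmt5AKO libraries 1, 2 and 3 stood there at -53.3, 61.0 and 81.0, against -74.6, 26.1 and -40.2 for WT libraries 1, 2 and 3. Along principal component 2 they separated, at -49.3, -12.8 and -10.2 for the Prmt5AKO libraries, against 8.89, 33.2 and 30.3 for the WT libraries. The nuclear RNA Malat1 moved with the split along the leading component. It had 1330, 43.3 and 51.2 CPM in Prmt5AKO eWAT, against 1139, 98.1 and 338 CPM in WT eWAT. Prmt5 itself had 14.6, 22.0 and 28.5 CPM in Prmt5AKO eWAT, against 36.6, 59.7 and 39.7 CPM in WT eWAT. Every Prmt5AKO library was thus below every WT library for Prmt5, as the labels would have it, with a log2 fold change of -1.06 ± 0.34 (SE, limma, adjusted p = 0.436).

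In the mouse genome (GRCm38), Msln is at chr17:25748613-25754378 on the minus strand, Upk3b at chr5:136038496-136046487 on the plus strand and Upk1b at chr16:38773184-38800328 on the minus strand. Lrrn4 (chr2:132868305-132880891, minus) and Wt1 (chr2:105126529-105173616, plus) share a chromosome but not a locus. Krt19 is at chr11:100140810-100148665 on the minus strand, Bnc1 at chr7:81966672-81992292 on the minus strand and Muc16 at chr9:18495455-18674530 on the minus strand. Krt8 (chr15:101996698-102004482, minus) and Krt18 (chr15:102028180-102032027, plus) are divergent neighbours 23.7 kb apart, the single pair among the members with a common locus. Exons of Krt8 overlap those of Gm36026 over 101 bp and exons of Bnc1 those of 4833418N17Rik over 98 bp, on the opposite strand in both cases. Whether the counting used strand is not given in the sources used here, so reads in these stretches cannot be assigned, and the annotation also names 1 Krt8 pseudogene, Krt8-ps.

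The 250 bases upstream of the RefSeq start are shown for 4 members, because Krt8 and Krt18 are neighbours whose levels moved together, and Bnc1 and Muc16 had the most negative genotype differences. RefSeq promoters (GRCm38.p6) were matched for 6 of 10 members, and capitals mark a TATA match (TATAA) or a GC box (GGGCGG), searched on both strands together with a WT1-type motif (GCGTGGGNG) whose end can overlap a GC box.
Krt8 (chr15:102004343-102004592, minus): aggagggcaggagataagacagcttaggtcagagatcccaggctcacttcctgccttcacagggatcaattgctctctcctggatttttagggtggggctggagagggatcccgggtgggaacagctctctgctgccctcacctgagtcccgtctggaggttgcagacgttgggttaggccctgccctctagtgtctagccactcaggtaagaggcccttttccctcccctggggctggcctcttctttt
Krt18 (chr15:102027966-102028215, plus): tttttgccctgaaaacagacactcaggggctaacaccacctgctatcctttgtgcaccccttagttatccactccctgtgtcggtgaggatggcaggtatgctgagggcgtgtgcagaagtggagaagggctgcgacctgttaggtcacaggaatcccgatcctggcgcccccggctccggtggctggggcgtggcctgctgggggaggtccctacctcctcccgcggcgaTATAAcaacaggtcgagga
Bnc1 (chr7:81992300-81992549, minus): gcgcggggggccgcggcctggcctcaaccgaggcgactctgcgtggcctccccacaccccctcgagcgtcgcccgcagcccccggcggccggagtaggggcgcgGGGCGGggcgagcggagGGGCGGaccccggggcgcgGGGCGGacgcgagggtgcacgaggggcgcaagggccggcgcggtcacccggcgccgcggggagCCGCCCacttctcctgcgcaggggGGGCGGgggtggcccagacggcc
Muc16 (chr9:18674604-18674853, minus): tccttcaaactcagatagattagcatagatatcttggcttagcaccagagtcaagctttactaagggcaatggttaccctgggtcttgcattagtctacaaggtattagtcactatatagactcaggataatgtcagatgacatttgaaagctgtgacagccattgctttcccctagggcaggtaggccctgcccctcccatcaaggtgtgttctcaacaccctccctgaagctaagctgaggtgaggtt

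Krt18 has 1 TATAA, at position -19 from the start, in a window of 60.4% GC. Krt8, at 58.0% GC, holds none of the 3 motifs, although its window ends in a run of T where the RefSeq start lies, and the bases past that start were not searched. Parts of the Krt8, Krt18 and Lrrn4 windows lie inside the gene positions given above, whose starts differ from the RefSeq starts. Bnc1 holds 5 GC boxes and its window is 83.6% GC, against a median of 52.4% over all promoters of this length. Muc16 has no match and 46.4% GC, and Upk3b and Lrrn4 have no match at 60.8% and 59.2% GC. Over all 32851 promoters of this length, 22.8% hold TATAA, 32.7% GGGCGG and 1.65% GCGTGGGNG. These matches describe letters and are not evidence of binding.

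The question put to the 2 genotypes was whether loss of Prmt5 in adipocytes goes with a different level of mesothelial transcripts in the fat pad. All 10 members were detected in every library, and none was called between Prmt5AKO and WT eWAT. Bnc1 alone was lower in every Prmt5AKO library than in every WT library, as were 6.28% of all genes. A call needed an adjusted p under 0.05 (Benjamini-Hochberg over the 16109 genes kept) and a log2 fold change beyond 0.5 in limma, and it was met by 0 of 10 members and by 0% of genes (0 of 16109), beside 1404 genes at an unadjusted p under 0.05. Run on whole reads, edgeR called 0 genes by quasi-likelihood and 162 by likelihood ratio, and DESeq2 called 301, with 0 members among them. In bulk tissue, fewer mesothelial cells and less RNA per cell cannot be told apart.

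**Figure D1:**
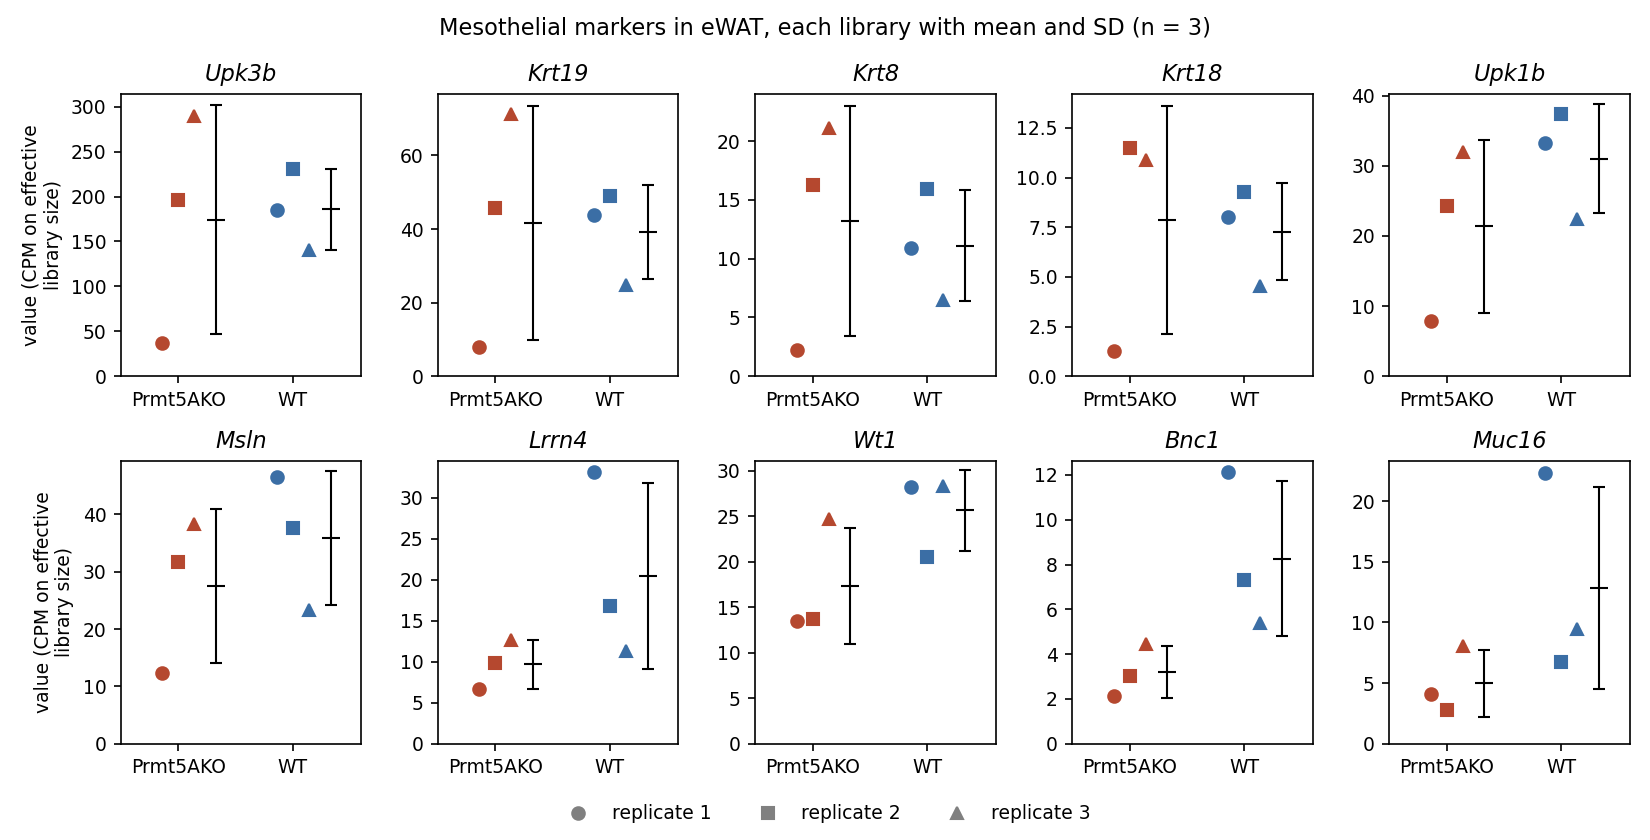
Values of the 10 mesothelial markers (CPM on the effective library size, linear axes from 0) in each Prmt5AKO library at left and each WT library at right, with the mean and SD beside the points (n = 3 each). Prmt5AKO replicate 1 is the lowest point in 9 panels. Bnc1 is the single panel in which the genotypes do not overlap, and 14.4% of all genes do not overlap in either direction.

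Upk3b encodes a uroplakin of the cell surface and was the most abundant member. It had 37.4, 196 and 289 CPM in Prmt5AKO libraries 1, 2 and 3, against 185, 231 and 141 CPM in WT libraries 1, 2 and 3. The Prmt5AKO libraries thus held both the lowest and the highest value of the series, and the WT libraries lay between them. The means were 174 ± 127 CPM in Prmt5AKO eWAT and 186 ± 45.1 CPM in WT eWAT (SD, n = 3 each), and the log2 fold change was -0.50 ± 0.69 (SE, limma, adjusted p = 0.743).

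Krt19, a type I keratin of simple epithelia, followed the same order. Its values were 8.02, 45.8 and 71.3 CPM in Prmt5AKO eWAT, against 43.9, 48.9 and 24.8 CPM in WT eWAT, with a log2 fold change of -0.32 ± 0.73 (SE, limma, adjusted p = 0.842). Krt8, the type II keratin that pairs with type I partners to build the filament, had 2.23, 16.3 and 21.1 CPM in Prmt5AKO eWAT, against 10.9, 15.9 and 6.44 CPM in WT eWAT. Krt18, the usual type I partner of Krt8, had 1.25, 11.5 and 10.9 CPM in Prmt5AKO eWAT, against 8.02, 9.27 and 4.55 CPM in WT eWAT. For all 3 keratins the first Prmt5AKO library was below every other library and the next 2 were at or above most WT libraries. The log2 fold changes were -0.13 ± 0.76 for Krt8 and -0.27 ± 0.73 for Krt18 (SE, limma), and their 95% intervals, -1.88 to 1.62 for Krt8 and -1.96 to 1.41 for Krt18, leave room for a change of either sign. The Krt18 value of Prmt5AKO replicate 1 rested on 27 reads, the fewest of any member in any library, with an exact Poisson 95% interval of 0.825 to 1.82 CPM that covers counting error only.

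Msln encodes mesothelin, a GPI-anchored surface glycoprotein whose precursor is cleaved. Its values were 12.4, 31.7 and 38.3 CPM in Prmt5AKO eWAT, against 46.6, 37.6 and 23.4 CPM in WT eWAT. Upk1b, a tetraspanin of the uroplakin group, had 7.84, 24.2 and 32.0 CPM in Prmt5AKO eWAT, against 33.2, 37.4 and 22.4 CPM in WT eWAT. Both had their lowest value in the first Prmt5AKO library, and the other Prmt5AKO libraries lay inside the WT range. The log2 fold changes were -0.47 ± 0.46 for Msln and -0.71 ± 0.51 for Upk1b (SE, limma, adjusted p = 0.668 for Msln and 0.617 for Upk1b).

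Muc16, the large membrane mucin of serosal surfaces that binds mesothelin, did not follow Msln. It had 4.08, 2.81 and 8.07 CPM in Prmt5AKO eWAT, against 22.3, 6.74 and 9.43 CPM in WT eWAT, so that WT replicate 1 was far above the rest and the genotypes overlapped through 1 Prmt5AKO and 1 WT library. Lrrn4, a leucine-rich repeat membrane protein, had 6.68, 9.81 and 12.7 CPM in Prmt5AKO eWAT, against 33.2, 16.8 and 11.3 CPM in WT eWAT, again highest in WT replicate 1. The log2 fold changes were -1.22 ± 0.53 for Muc16 (SE, limma, adjusted p = 0.573) and -0.94 ± 0.44 for Lrrn4 (adjusted p = 0.587).

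Bnc1 encodes basonuclin 1, a zinc finger protein known from keratinocytes and germ cells and also made by mesothelium. It had 2.13, 3.03 and 4.44 CPM in Prmt5AKO eWAT, against 12.1, 7.31 and 5.37 CPM in WT eWAT. The highest Prmt5AKO library was below the lowest WT library, and the means were 3.20 ± 1.16 CPM in Prmt5AKO eWAT and 8.27 ± 3.47 CPM in WT eWAT (SD, n = 3 each). Its log2 fold change was -1.22 ± 0.41 (SE, limma, adjusted p = 0.473). Wt1, the zinc finger regulator of mesothelial and kidney development, had 13.5, 13.7 and 24.6 CPM in Prmt5AKO eWAT, against 28.2, 20.5 and 28.3 CPM in WT eWAT. Its genotypes overlapped through Prmt5AKO replicate 3, and its log2 fold change was -0.60 ± 0.33 (SE, limma, adjusted p = 0.601).

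Bnc1 was the single member lower at an unadjusted p under 0.05, as were 3.93% of all genes (633 of 16109). It was also the single member without overlap between genotypes on the lower side, where 6.28% of all genes stood, and 0 members stood on the higher side, where 8.16% of all genes did. The log2 fold change was negative for 10 of 10 members, with a median of -0.55, beside a median of -0.03 and a share of 51.9% negative over all genes. Fitted as counts with genotype as the only term, by edgeR or DESeq2, Krt19, Krt8 and Krt18 turned slightly positive, between 0.09 and 0.27, and 7 members stayed negative. With the replicate number added in edgeR, and in limma-voom, 10 of 10 were negative. Leaving out WT replicate 1 took Bnc1 to -0.92 (adjusted p = 0.963 in limma), and no member was then at an unadjusted p under 0.05, where 2.04% of all genes were lower. The members are not independent of each other, since they mark a common cell type and were read from the same libraries.

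**Figure D2:**
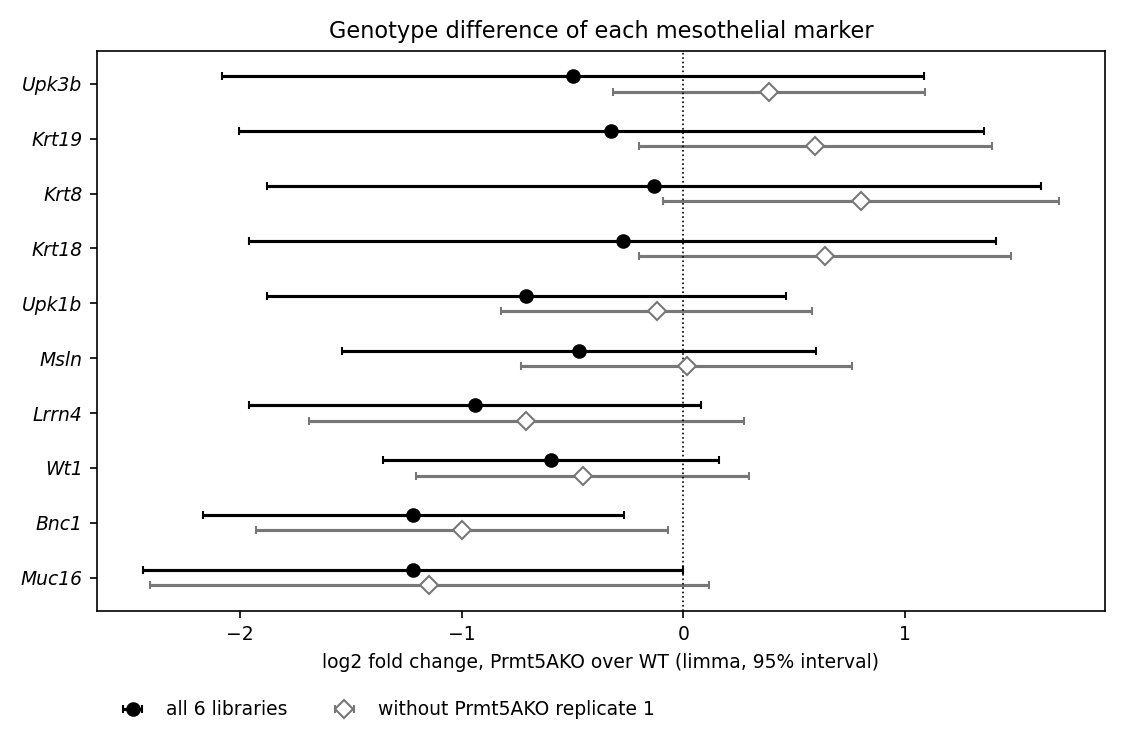
The log2 fold change of each member, Prmt5AKO over WT, from limma with its 95% interval, over all 6 libraries (filled) and without Prmt5AKO replicate 1 (open). All 10 filled points lie below 0, whereas 5 of 10 open points lie above it.

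The common sign did not hold without 1 library. Prmt5AKO replicate 1 was the lowest of the 6 libraries for 9 of 10 members, the exception being Muc16, which was lowest in Prmt5AKO replicate 2, and it was the lowest library for 15.3% of all genes kept. Without it, 5 members had a negative and 5 a positive log2 fold change, with a median of -0.05. The keratins and Upk3b then changed sign, at 0.80 for Krt8, 0.64 for Krt18, 0.60 for Krt19 and 0.39 for Upk3b, and Msln was at 0.02. Bnc1 kept a log2 fold change of -0.996 ± 0.41 (SE, limma, adjusted p = 0.124), Muc16 was at -1.15 and Lrrn4 at -0.71. Krt8 and Krt18 were then higher in both remaining Prmt5AKO libraries than in every WT library, and Bnc1 lower, which with 2 libraries against 3 held for 28.1% of all genes on the higher and 28.7% on the lower side. That fit called 84 genes and 0 members.

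The summed level of the 10 members shows the same library. The sums were 95.6, 354 and 513 CPM in Prmt5AKO libraries 1, 2 and 3, against 424, 431 and 277 CPM in WT libraries 1, 2 and 3. The highest was 5.37-fold the lowest within Prmt5AKO eWAT and 1.56-fold within WT eWAT, and the means were 321 ± 211 CPM in Prmt5AKO eWAT and 377 ± 87.2 CPM in WT eWAT (SD, n = 3 each). The members took 0.0110 to 0.0461% of reads on genes in Prmt5AKO eWAT and 0.0283 to 0.0451% in WT eWAT. Upk3b alone made up 39.2 to 56.4% of the sum in Prmt5AKO eWAT and 43.7 to 53.5% in WT eWAT, and the sum without it was 58.1, 159 and 223 CPM in Prmt5AKO eWAT, against 238, 201 and 136 CPM in WT eWAT. Prmt5AKO replicate 1 was the lowest library by either sum.

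Spread within a genotype split the members. Within Prmt5AKO eWAT the highest library was 9.48-fold the lowest for Krt8, 9.19-fold for Krt18, 8.89-fold for Krt19 and 7.73-fold for Upk3b, whereas it was 1.83-fold for Wt1, 1.89-fold for Lrrn4 and 2.08-fold for Bnc1. Within WT eWAT the range over the members was 1.38-fold for Wt1 to 3.31-fold for Muc16, and the keratins and Upk3b lay between 1.64 and 2.47-fold. The median gene had a ratio of 1.92 within Prmt5AKO eWAT and 1.62 within WT eWAT, taken on value plus 0.5.

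By their profiles over the 6 libraries, some members followed Upk3b (the first set) and others Bnc1 (the second set), with no sharp border. Likeness was measured as the root mean square (RMS) distance between log2(value + 0.5) profiles, each centred on its own mean, so that 0 means an identical pattern. Upk3b and Krt19 were 0.15 apart, Krt19 and Krt8 0.17, and Krt8 and Krt18 0.18. Lrrn4 and Bnc1 were 0.19 apart, and Muc16 was nearest to Bnc1 at 0.43. Msln and Upk1b were 0.22 apart and lay between these sets, with Upk1b at 0.32 from Upk3b. Wt1 had no close partner, with Bnc1 nearest at 0.47. Krt8 and Muc16 were the farthest pair at 1.25. The points compared are 6 libraries that all genes share, so these distances describe the libraries and carry no test.

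**Figure D3:**
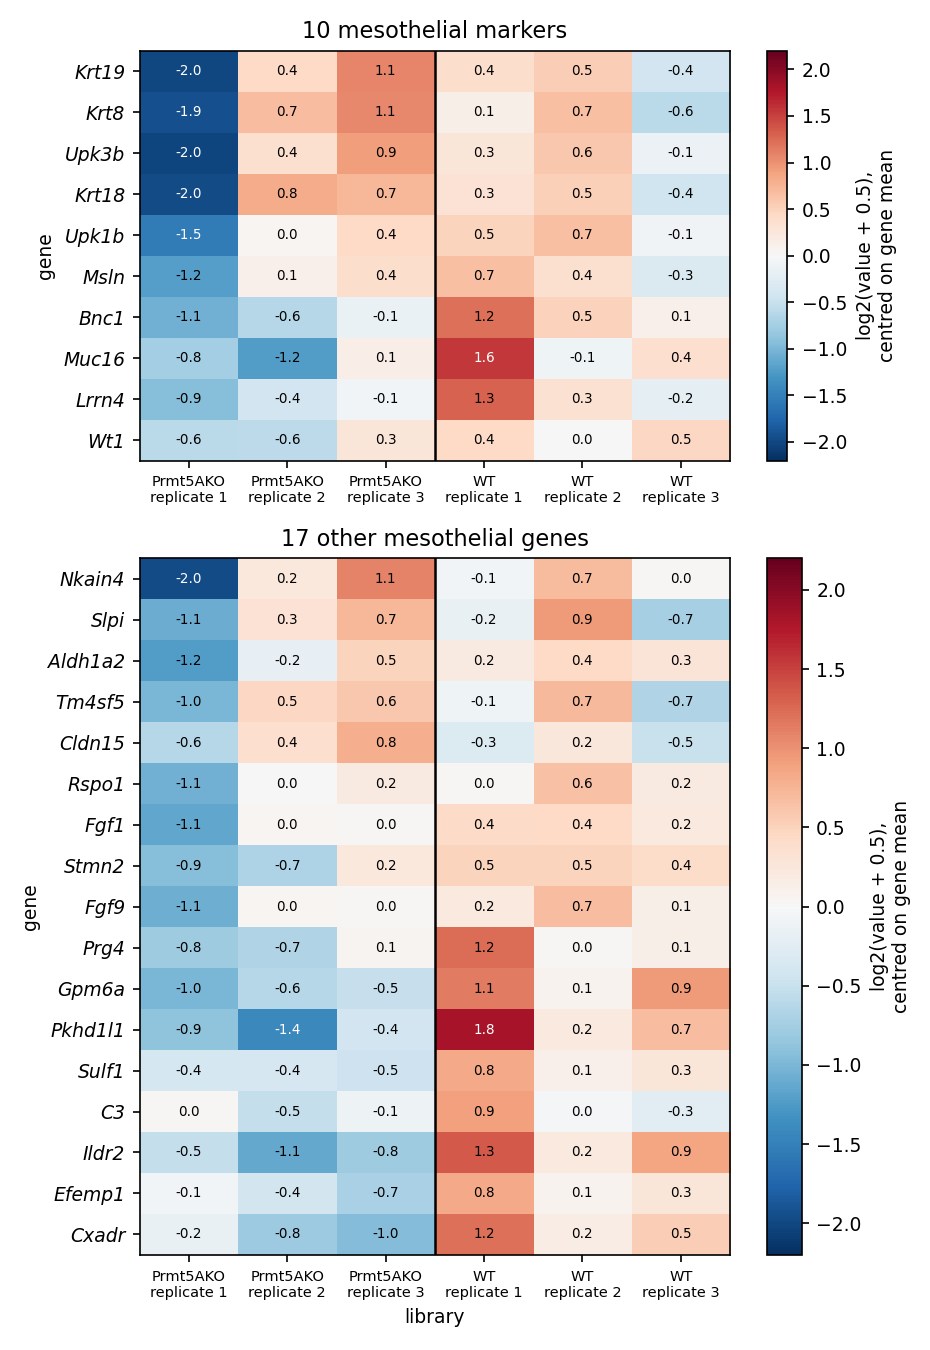
Log2(value + 0.5) centred on each gene's mean for the 10 members (top) and 17 other mesothelial genes (bottom), with Prmt5AKO libraries left of the line and WT libraries right of it, red for higher and blue for lower. The keratins and Upk3b are near -2.0 in Prmt5AKO replicate 1, whereas Muc16, Lrrn4 and Bnc1 are highest in WT replicate 1, at 1.56, 1.29 and 1.21.

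Ratios within a library restate this sorting on another scale, since they come from the same values, and they add no support to it. Krt19 over Upk3b was 0.214, 0.234 and 0.246 in Prmt5AKO eWAT, against 0.237, 0.212 and 0.177 in WT eWAT, a 1.396-fold range across libraries in which Upk3b itself ranged 7.73-fold. Krt8 over Krt18, the ratio of the keratin pair, was 1.78, 1.41 and 1.94 in Prmt5AKO eWAT, against 1.36, 1.71 and 1.41 in WT eWAT (two-sided exact permutation test, p = 0.2, adjusted p = 0.4 over 2 ratios tested). Krt19 over Krt18 was 6.41, 3.98 and 6.57 in Prmt5AKO eWAT, against 5.47, 5.28 and 5.45 in WT eWAT (exact permutation test, p = 1, adjusted p = 1). With 3 libraries against 3 this test cannot give a p below 0.1, so it could not have reached 0.05.

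The ratios of the second set to Upk3b ranged more widely, as the profile distances already gave. Muc16 over Upk3b was 0.109, 0.0144 and 0.0279 in Prmt5AKO eWAT, against 0.121, 0.0292 and 0.0670 in WT eWAT, an 8.39-fold range. Bnc1 over Upk3b was 0.0570, 0.0155 and 0.0153 in Prmt5AKO eWAT, against 0.0654, 0.0316 and 0.0382 in WT eWAT. Lrrn4 over Upk3b was 0.178, 0.0502 and 0.0437 in Prmt5AKO eWAT, against 0.179, 0.0730 and 0.0802 in WT eWAT. In each of these ratios the first library of both genotypes was the highest of its genotype, and these are the libraries with the most Malat1. Wt1 over Upk3b ranged 5.15-fold and was highest in Prmt5AKO replicate 1 at 0.361.

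**Figure D4:**
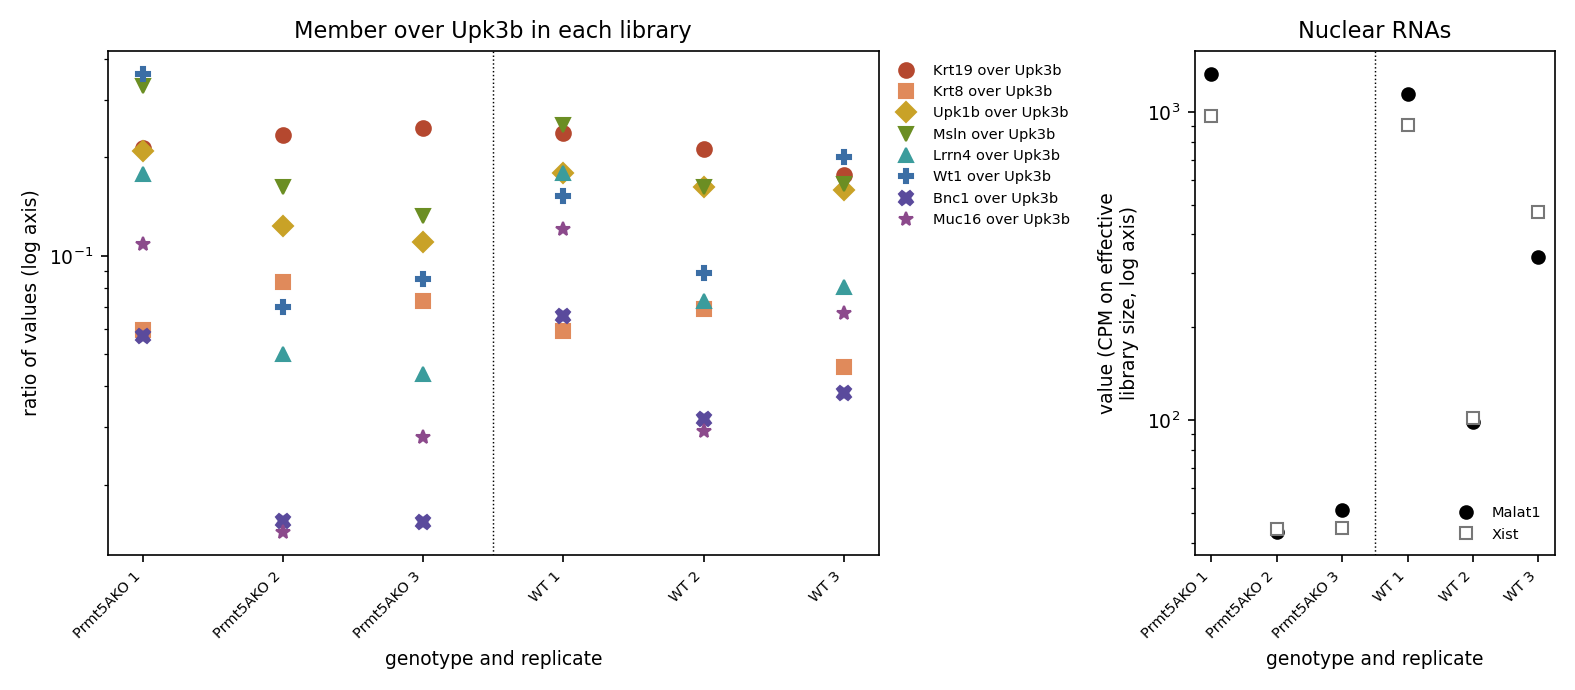
Left, the ratio of 8 members to Upk3b in each library (log axis), and right, Malat1 and Xist in the same libraries (CPM on the effective library size, log axis), with Prmt5AKO libraries left of the dotted line. Krt19 over Upk3b stays between 0.177 and 0.246, whereas Muc16 over Upk3b is 0.109 in Prmt5AKO replicate 1 and 0.121 in WT replicate 1 and at most 0.0670 elsewhere.

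Nuclear RNAs and the levels of short and long genes also differed between the libraries. Malat1 and Xist were highest of their genotype in Prmt5AKO replicate 1 and WT replicate 1. Upk3b, in contrast, was at 37.4 CPM in Prmt5AKO replicate 1 and at 185 CPM in WT replicate 1. Xist was at 966, 44.1 and 44.5 CPM in Prmt5AKO eWAT, against 904, 101 and 474 CPM in WT eWAT, and Neat1 at 651, 81.4 and 70.9 CPM in Prmt5AKO eWAT, against 881, 535 and 1209 CPM in WT eWAT. The shortest genes (exons up to 2.35 kb) had a median centred log2 level of -0.28, 0.25 and 0.34 in Prmt5AKO eWAT, against -0.39, 0.15 and -0.04 in WT eWAT, and the longest genes (6.39 kb or more) showed the opposite signs, at 0.38, -0.29 and -0.47 in Prmt5AKO eWAT, against 0.45, -0.20 and 0.14 in WT eWAT. Among the members, Krt18 (1.44 kb), Krt19 (1.86 kb) and Krt8 (1.96 kb) have the shortest exon lengths and Bnc1 (4.65 kb), Wt1 (6.195 kb) and Muc16 (26.4 kb) the longest. Upk3b, at 3.53 kb, ran with the keratins although Lrrn4, at 3.72 kb, did not. The part of RNA quality or length in the members' pattern was not tested.

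A comparison of the first libraries alone holds the nuclear RNAs near each other, since Malat1 was at 1330 CPM in Prmt5AKO replicate 1 and 1139 CPM in WT replicate 1. Between these 2 libraries all 10 members were lower in Prmt5AKO, with ratios of Prmt5AKO replicate 1 to WT replicate 1 from 0.156 for Krt18 to 0.479 for Wt1. For 9 of 10 members the direction was already fixed, since Prmt5AKO replicate 1 was the lowest of all 6 libraries. The second libraries gave ratios of 0.415 for Bnc1 to 1.24 for Krt18, and the third libraries 0.826 for Bnc1 to 3.28 for Krt8. No source used here says that equal numbers pair the libraries, and single libraries give no test. With the mean log2 level of Malat1, Neat1 and Xist as a covariate, a fit added after the data were seen, the median log2 fold change of the members was -1.19 and 9 of 10 members were lower at an unadjusted p under 0.05, beside 6.66% of all genes. In that fit Upk3b was at -1.42 ± 0.32 (SE, limma, adjusted p = 0.0584) and Upk1b at -1.33 ± 0.29 (adjusted p = 0.0527), Muc16 missed that p at -1.06 ± 0.51, and 0 members and 236 genes were called. The covariate itself was 9.88, 5.76 and 5.78 in Prmt5AKO eWAT, against 9.92, 7.45 and 9.18 in WT eWAT. It was thus not balanced between the genotypes, and the part of genotype in it was not tested.

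Levels between genes were compared per kb of exon (CPM per kb, mean of 6 libraries). Upk3b led at 51.0, followed by Krt19 at 21.8, Upk1b at 12.5, Msln at 10.3, Krt8 at 6.203, Krt18 at 5.27, Lrrn4 at 4.06, Wt1 at 3.46, Bnc1 at 1.23 and Muc16 at 0.338. In Prmt5AKO eWAT all neighbours in the order overlapped except that every Lrrn4 library was above every Bnc1 library and every Bnc1 library above every Muc16 library. In WT eWAT the separate neighbours were Upk3b above Krt19, Wt1 above Bnc1 and Bnc1 above Muc16. Lrrn4 ranked below Wt1 in Prmt5AKO eWAT and above Krt18 in WT eWAT, with overlap in both cases.

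Other genes that mark mouse mesothelium were read from a list of 20, of which 17 were kept and Pdpn, Calb2 and Itln1 were not analysed here. Of these, 7 were lower and 0 higher at an unadjusted p under 0.05, beside 3.93% and 4.79% of all genes. Without overlap, 9 were lower and 0 higher, beside 6.28% and 8.16% of all genes. The median log2 fold change was -0.72 (15 negative, 2 positive), with 0 called, as over all genes. Without Prmt5AKO replicate 1, 6 were lower and 1 higher at that p with a median of -0.53, but there 19.6% of all genes were lower and 15.6% higher. Without WT replicate 1, 4 were lower and 0 higher with a median of -0.67, beside 2.04% and 2.77% of all genes. Ildr2, an immunoglobulin-like membrane protein, had 8.58, 5.48 and 7.13 CPM in Prmt5AKO eWAT, against 32.8, 14.8 and 23.4 CPM in WT eWAT (log2 fold change -1.62 ± 0.37, SE, limma, adjusted p = 0.318). Gpm6a, a tetraspan membrane glycoprotein of neurons and mesothelium, had 9.42, 12.4 and 13.6 CPM in Prmt5AKO eWAT, against 43.6, 20.5 and 37.5 CPM in WT eWAT (log2 fold change -1.43 ± 0.35, adjusted p = 0.336). Pkhd1l1, a very large fibrocystin-like membrane protein, had 4.55, 2.99 and 6.42 CPM in Prmt5AKO eWAT, against 32.1, 10.3 and 14.4 CPM in WT eWAT (log2 fold change -1.81 ± 0.48, adjusted p = 0.368). All 3 were separate between the genotypes and highest in WT replicate 1, as Bnc1 was. C3, Efemp1, Sulf1 and Fgf1 on this list are also made by adipose stromal cells or adipocytes.

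Each of these 17 genes was set beside the member whose profile was nearest. Nkain4, a partner of the sodium pump beta subunit, was 0.18 from Upk3b, with 4.04, 20.4 and 37.4 CPM in Prmt5AKO eWAT, against 16.6, 28.4 and 17.7 CPM in WT eWAT. Aldh1a2, which makes retinoic acid in mesothelium, was 0.26 from Upk1b, and Rspo1, Fgf1 and Fgf9 were also nearest to Upk1b. Stmn2 was 0.25 from Wt1, as C3, Efemp1 and Sulf1 were nearest to Wt1. Prg4, the joint and serosal lubricant, was 0.23 from Lrrn4, Pkhd1l1 and Ildr2 were nearest to Muc16, and Gpm6a and Cxadr to Bnc1. Slpi was nearest to Krt8, and Cldn15 and Tm4sf5 to Msln.

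The median log2 fold change was -0.62 over transcription factors of mesothelium and its mesoderm (11 of 12 kept). At an unadjusted p under 0.05, 3 were lower and 0 higher, beside 3.93% and 4.79% of all genes. The count of lower genes was 7 without Prmt5AKO replicate 1, where 19.6% of all genes were lower at that p. It was 3 without WT replicate 2 (7.11% of all genes), 0 without Prmt5AKO replicate 2 (1.79%) and 1 without each of the other libraries (1.67 to 2.10%). Osr1, which acts in intermediate mesoderm and stroma, had 14.4, 22.5 and 45.5 CPM in Prmt5AKO eWAT, against 58.0, 60.6 and 51.8 CPM in WT eWAT (log2 fold change -1.19 ± 0.41, SE, limma, adjusted p = 0.473). It was lower in every Prmt5AKO library than in every WT library, as were Gata6, Nr2f1 and Meis1. Without overlap, 4 factors were thus lower and 0 higher, beside 6.28% and 8.16% of all genes. Tbx18 (log2 fold change -0.97) and Klf4 (log2 fold change -1.04) overlapped between the genotypes. In the retinoic acid pathway (11 of 15 kept), the median was -0.37. At an unadjusted p under 0.05, 3 of its genes were lower and 1 higher, beside 3.93% and 4.79% of all genes. Aldh1a1 was at -1.09 and Aldh1a3 at -1.37, both dehydrogenases that make retinoic acid, and Dhrs3, which turns retinaldehyde back to retinol, was at 0.97.

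The median log2 fold change was -0.06 over keratin partners and plakins (9 of 9 kept), and 1, Krt23, was lower at an unadjusted p under 0.05 at about 1 CPM in WT eWAT. Krt7, the type II keratin that mesothelium shares with simple epithelia, had 5.75, 22.2 and 27.9 CPM in Prmt5AKO eWAT, against 18.6, 19.0 and 11.7 CPM in WT eWAT. Its order of libraries was close to that of Krt19 and Krt8, and its exons cover 7049 bp by the union of annotated transcripts. Junction genes of epithelia (11 of 13 kept) had a median of -0.48, and 1 was lower at an unadjusted p under 0.05. This was Cldn1, a tight-junction claudin, with 3.11, 2.10 and 2.88 CPM in Prmt5AKO eWAT, against 9.86, 8.86 and 10.8 CPM in WT eWAT (log2 fold change -1.70 ± 0.31, SE, limma, adjusted p = 0.223). Surface and lubrication genes of serosa (10 of 12 kept) had a median of 0.03, with Muc1 at 0.77 and Cd44 at 0.79 on the higher side and Rdx at -0.72 on the lower at an unadjusted p under 0.05. In the same fit 3.93% of all genes were lower and 4.79% higher at that p.

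The label of the members as mesothelial was checked against other epithelia that share keratins, uroplakins or Wt1. Of 15 general epithelial genes, 3 were kept, and the list summed to 1.21 to 2.22 CPM in Prmt5AKO eWAT and 1.36 to 2.30 CPM in WT eWAT, with Epcam at 0.417 to 1.04 CPM in Prmt5AKO eWAT and 0.530 to 0.818 CPM in WT eWAT. Krt5, Krt14, Cdh1, Upk2 and Upk3a were not analysed here. Other bladder-lining genes (2 of 8 kept) summed to 1.16 to 2.05 CPM in Prmt5AKO eWAT and 0.984 to 2.56 CPM in WT eWAT, against up to 289 CPM for Upk3b. Genes of female reproductive tract epithelium (4 of 10 kept) summed to 10.99 to 37.3 CPM in Prmt5AKO eWAT and 19.1 to 25.6 CPM in WT eWAT, most of which was Krt7, while Pax8 and Foxj1 were not analysed here. Ovary genes (5 of 12 measured, of which 4 were kept) summed to 10.9 to 11.8 CPM in Prmt5AKO eWAT and 10.03 to 11.5 CPM in WT eWAT.

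Among the other cells of the depot, the median log2 fold change was -0.02 over 10 adipocyte genes, 1 of them lower at an unadjusted p under 0.05, beside 3.93% of all genes lower and 4.79% higher in this fit. Adipose progenitor genes (11 of 12 kept), which matter for Wt1, had a median of -0.72, with 5 lower and 0 higher at an unadjusted p under 0.05. They summed to 1461 to 1521 CPM in Prmt5AKO eWAT and 1451 to 1866 CPM in WT eWAT. Dpp4, a marker of early progenitors that mesothelium can also carry, had 16.7, 15.7 and 15.4 CPM in Prmt5AKO eWAT, against 81.3, 31.8 and 46.8 CPM in WT eWAT (log2 fold change -1.61 ± 0.36, SE, limma, adjusted p = 0.318), and Fbn1 was at -1.06 and Pi16 at -1.14. Endothelial genes (9 kept) had a median of -0.71 with 2 lower, smooth muscle and pericyte genes (8 kept) a median of 0.62 with 3 higher, and leukocyte genes (11 kept) a median of 0.30 with 4 higher and 1 lower at an unadjusted p under 0.05. No list had a called gene, as this fit called 0 of 16109 genes. The part of these cells in the members' levels was not tested.

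The 6 non-member genes whose profile was nearest to the mean profile of the 10 members, among 14497 genes with a mean of at least 1 CPM, were Adgrd1, Fmod, Cybrd1, Gprc5a, Wnt2 and Igfbp2. Adgrd1, an adhesion G protein-coupled receptor, was 0.14 from the mean profile, with 25.3, 64.7 and 73.0 CPM in Prmt5AKO eWAT, against 109.5, 91.9 and 60.0 CPM in WT eWAT. Fmod, a small proteoglycan of the matrix, was 0.16 from it, with 8.30, 25.2 and 31.3 CPM in Prmt5AKO eWAT, against 31.8, 30.1 and 25.5 CPM in WT eWAT. The others stood at 0.16 for Cybrd1, 0.17 for Gprc5a, 0.18 for Wnt2 and 0.18 for Igfbp2. All 6 were lowest in Prmt5AKO replicate 1 and highest in WT replicate 1 or in Prmt5AKO replicate 3, as the mean of the members was lowest in the first and highest in WT replicate 1.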

How the data were processed

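In the deposited table, each library has 1 column of signal, made by the authors from read counts as CPM on an effective library size (library size times a scaling factor). By the submitters' processing notes they used FastQC 0.11.9, Trim Galore 0.6.0, STAR 2.7.10a on GRCm38 and featureCounts of Subread 2.0.1. A batch correction is mentioned in the paper's results, with no batch named. The table's own fold changes, p-values and term lists were not used.

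Values were whole multiples of 1 read for 100% of entries (tolerance 0.05 read), so counts were recovered for the alternatives in edgeR 4.0.16 and DESeq2 1.42.0. Genes reaching 0.5 CPM in 3 or more libraries (16109 of 16619) were compared by limma 3.58.1 in R 4.3.3 (lmFit, eBayes with trend) on log2(CPM + 0.5), which understates changes of low genes, with genotype as the only term. The planned design assumed plain CPM, and its test was kept. The method was tested on simulated data with independent genes and no shared library effect, so that test does not cover the spread between these libraries. Exon lengths came from a GENCODE annotation of GRCm38, and 16588 of 16619 gene IDs had one. Permutation tests were exact (SciPy 1.17.1), and figures were drawn with Matplotlib 3.10.9.

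Members and gene lists were chosen with earlier results of these data known. Named were all 10 members, Prmt5, up to 3 genes with the smallest p from each list, genes a list's check turned on, and the 6 non-members nearest to the mean member profile. Krt7, Nkain4 and other genes named for their profile were chosen after their values were seen. The alternatives were other pseudocounts, filters, scalings and tools, array weights, the replicate number as a block, and each library left out in turn.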

Additional observations from a re-analysis of the deposited data

How the results depend on the processing

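Over all genes, 0 calls became 162 with edgeR's likelihood ratio test, 301 with DESeq2, 9322 with array weights, 129 with a replicate block in limma, 686 with a replicate block in edgeR, 236 with the nuclear RNA covariate (added after the data were seen) and 0 to 84 with 1 library left out (84 without Prmt5AKO replicate 1). Calls among members stayed at 0 except for array weights, which stopped before convergence and called 6 (Krt19, Krt8, Krt18, Wt1, Bnc1 and Muc16). Members at an unadjusted p under 0.05 numbered 1 (8.72% of all genes), against 2 with a pseudocount of 0.1 (8.70%) or median-ratio size factors (8.64%), 3 with edgeR or DESeq2 (8.36 to 10.7%), 3 with a replicate block in limma (19.8%) or edgeR (20.1%), 7 with array weights, where 74.4% of all genes were, and 9 with the covariate (15.0%). With 1 library left out they numbered 0 to 3: 3 without Prmt5AKO replicate 3 (4.78%), 2 without WT replicate 2 (12.4%) or 3 (3.98%) and 0 without WT replicate 1 (4.81%). Members without overlap in either direction numbered 1 (14.4% of all genes), against 2 after rescaling to equal totals (14.5%) and 1 to 4 with 1 library left out, where fewer libraries raise the share of all genes: 4 without Prmt5AKO replicate 3 (18.2%), and 3 without Prmt5AKO replicate 1 (56.8%), WT replicate 2 (31.7%) or WT replicate 3 (17.3%). Krt19, Krt8 and Krt18 reversed to 0.0889, 0.25 and 0.11 in edgeR's quasi-likelihood test, to 0.0888, 0.25 and 0.11 in its likelihood ratio test, to 0.11, 0.27 and 0.13 in DESeq2 and to 0.76, 1.14 and 1.12 with array weights, which also put Msln at 0.32, Upk3b at 0.40 and Upk1b at 0.0278. With 1 library left out, the ranges were -0.78 to 0.0156 for Msln, -1.08 to 0.39 for Upk3b, -0.94 to 0.60 for Krt19, -0.69 to 0.80 for Krt8 and -0.75 to 0.64 for Krt18, and Krt8 was also positive, at 0.16, without WT replicate 2. The causes were not tested. Lrrn4, Wt1, Bnc1 and Muc16 stayed negative under every alternative run.

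The sources used here do not say whether equal replicate numbers pair the libraries. Between libraries of equal number, the deviations from the genotype mean correlated at 0.68, 0.57 and -0.11. Prmt5AKO replicate 3 and WT replicate 2, of unequal number, stood at 0.53. Whether a batch goes with the replicate number was not tested. The median log2 fold change of the members was negative in 19 of 20 alternatives, the exception being 0.18 with array weights. Precision is limited by 3 libraries a genotype: the SE of a log2 fold change ran from 0.33 for Wt1 to 0.76 for Krt8, beside a median of 0.37 over all genes.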
